A study of Mus musculus with 6 samples.

Results

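The adipocyte marker genes Adipoq, Cfd, Lep, Retn, Fabp4, Lpl, Cd36, Plin1, Cidec and Pparg were read in 3 mammary cell populations of mice of 2 genotypes. They were taken as the non-control probes whose gene name on the array is one of these symbols, with Plin1 listed as Plin. All 10 of 10 genes had a probe, 15 probes and 33 spots in all, out of 27670 genes named on the array. Each of the 10 passed the scanner software's test of signal over background in Cy5, the sample dye, on all 6 arrays, and all entered the test over 24691 genes. The samples came from virgin C57/B6 mice that carried DNP63 KO in heterozygous form (het) or were wild type (WT). Each genotype had 1 array of each population. P4 is the CD24+CD29hi gate, in which mammary stem cells (MaSC) are enriched, P5 is the CD24+CD29lo gate, in which luminal progenitors are enriched, and MEC is total mammary epithelial cells. The number of mice behind an array is not stated, and no group had a replicate. Sample RNA carried Cy5 and a Universal Mouse Reference RNA from 11 mouse cell lines carried Cy3, so each level below is log2(sample over reference) for 1 array.

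Adipocytes store triglyceride in a lipid droplet and secrete hormones, and in the virgin mammary gland they fill the fat pad around the epithelial ducts. Pparg, a nuclear receptor, drives their differentiation and switches on genes for fatty acid uptake and droplet formation. The markers are not equally restricted to adipocytes. Fabp4 and Cd36 are also made by capillary endothelium and macrophages, and Lpl by macrophages and other lipid-using cells, whereas Adipoq and Plin1 are largely restricted to adipocytes. P4 and P5 were sorted by flow cytometry from suspensions of the dissociated gland. The labels do not say whether the total MEC passed a sort or still held other cells of the gland.

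Each array had 45018 spots, of which 72.1% to 87.7% exceeded background in Cy5. The sorted arrays lay on slide 1 and both MEC arrays on slide 2, so population and slide cannot be told apart in P4 or P5 against MEC. On each slide the het arrays lay at later positions than the WT arrays, so position cannot be told apart from genotype. The sort labels were checked against markers. All 8 basal genes were called higher and all 8 luminal genes lower in P4 than in P5 (median differences 5.34 and -3.71). A few local backgrounds were extreme. The highest Cy3 background was 51 to 1125 on the 3 het arrays, against 30168 on WT P4, 6566 on WT MEC and 5972 on WT P5. Of the 33 spots of the marker genes, at most 2 per array carried the scanner software's outlier mark for local background. The values first given use the backgrounds as deposited, and those after replacing marked backgrounds by the array's median background stand beside them for the marker genes where a call, a direction or a size changes, and for the other lists as counts and named calls. On some WT arrays the choice moved a dim gene more than on the het arrays. Cidec stood at 2.11 in het MEC and 1.33 in WT MEC as given, and at 2.12 in het MEC and 2.17 in WT MEC with outlier backgrounds replaced.

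The probes of the genes with several probes that differ between populations, and of Cfd, whose WT P4 value depends on the background, are printed 5′ to 3′ in the array's own orientation. Each is a 60-base oligonucleotide designed by the manufacturer on mouse build mm7. No capitals are used, since no stretch was singled out. No mm7 annotation was used, so exon, intron or UTR is not given.
Fabp4, A_51_P336833: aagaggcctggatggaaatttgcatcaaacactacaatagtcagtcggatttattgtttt
Fabp4, A_51_P336830: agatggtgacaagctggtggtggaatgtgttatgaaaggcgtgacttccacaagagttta
Fabp4, A_52_P564544: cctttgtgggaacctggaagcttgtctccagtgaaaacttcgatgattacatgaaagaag
Cfd, A_51_P156955: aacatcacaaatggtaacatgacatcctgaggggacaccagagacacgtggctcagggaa
Lpl, A_51_P259296: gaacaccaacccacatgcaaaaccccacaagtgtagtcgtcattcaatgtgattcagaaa
Lpl, A_52_P257812: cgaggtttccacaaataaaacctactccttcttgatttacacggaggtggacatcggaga
Cd36, A_51_P375146: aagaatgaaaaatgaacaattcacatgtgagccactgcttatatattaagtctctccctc
Cd36, A_51_P375138: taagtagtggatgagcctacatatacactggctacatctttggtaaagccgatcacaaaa
The first probe of each gene is the brightest and stands for the gene. The Fabp4 probes lie on the minus strand at chr3:10212636-10212696, chr3:10212718-10213447 and chr3:10216627-10216686. The second of these intervals spans 730 bases, more than the probe's own length. Cfd lies at chr10:79672573-79672632 on the plus strand. The Lpl probes lie on the plus strand at chr8:67361126-67361185 and chr8:67355909-67355968, and the Cd36 probes on the minus strand at chr5:16796301-16796360 and chr5:16796811-16799243. Probes of 1 gene printed here share no run longer than 7 bases, whereas the 2 Retn probes share 22 bases. GC content over the 15 probes ran from 35.0% (Cd36) to 55.0% (Plin1).

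The sorted populations were first set against MEC, to see how the marker levels differed between the gated cells and the total preparation. In P4, Cfd, Lpl, Cd36, Pparg and Cidec fell, with log2 differences between -2.94 (Cfd) and -1.26 (Cidec), and the same 5 genes fell in P5, with differences between -3.71 (Cd36) and -1.33 (Cidec). All 10 genes were lower in P4 and in P5 than in MEC by the fitted difference, and none was called higher. The median difference of the 10 genes was -1.28 in P4 and -1.44 in P5, beside 0.04 and 0.03 over all genes tested. Over all genes, 4.1% were called lower and 2.75% higher in P4 than in MEC, and 3.01% lower and 0.923% higher in P5, at a Benjamini-Hochberg adjusted p below 0.05 in an additive limma fit of population and genotype with 2 residual degrees of freedom. The split of calls over all genes moved with the scaling, to 6658 lower and 325 higher in P4 and 7796 lower and 444 higher in P5 with median centring, against 1013 and 680 in P4 and 743 and 228 in P5 with loess. For 7 of the 10 genes, all but Plin1, Lep and Retn, both MEC arrays lay above all 4 sorted arrays, which 9.38% of all genes did. In bulk samples like these, fewer adipocytes, less RNA per adipocyte and fewer other cells that make these genes cannot be told apart. Nor can any of them be told apart from the slide.

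**Figure D1:**
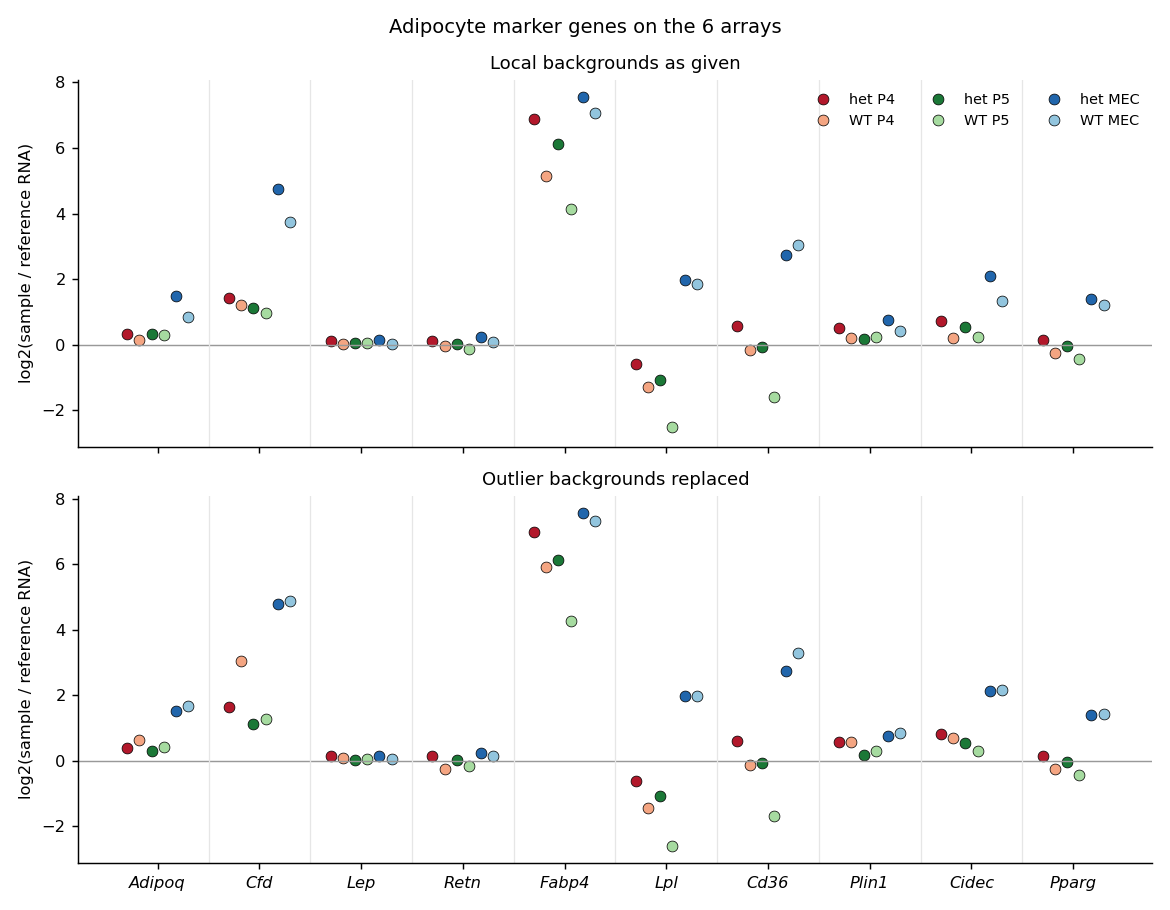
Level of each gene on each array, as log2(sample over reference RNA), with the local backgrounds as given (upper panel) and with outlier backgrounds replaced (lower panel). Each point is 1 array. The 2 blue MEC points stand above the sorted arrays for Cfd, Lpl, Cd36, Pparg, Cidec, Adipoq and Fabp4 in both panels, Lep stays near 0, and the WT P4 point of Cfd moves to 3.06 in the lower panel.

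Of the secreted products, Cfd (adipsin, complement factor D) had the largest difference in P4. Its level was 1.41 in het and 1.20 in WT P4 and 1.11 in het and 0.96 in WT P5, against 4.76 in het and 3.74 in WT MEC. Every sorted array lay below both MEC arrays. The difference was -2.94 (SE 0.25, adjusted p = 0.0224) in P4 and -3.21 (SE 0.25, adjusted p = 0.018) in P5. Replacing the outlier backgrounds put het P4 at 1.65 and WT P4 at 3.06, and the difference in P4 was -2.48 (SE 0.35, adjusted p = 0.0152). In the scanner software's own log ratios the P4 difference was -2.17 and not called (adjusted p = 0.0611). The raw Cy5 signal of the Cfd probe was 168 in het P4 and 396 in WT P4, 124 in het P5 and 182 in WT P5, against 2907 in het MEC and 4870 in WT MEC. WT P4 thus had the brightest Cfd signal of the sorted arrays before any correction.

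Adipoq (adiponectin) was 0.32 in het and 0.15 in WT P4 and 0.31 in het and 0.30 in WT P5, against 1.49 in het and 0.85 in WT MEC. The MEC arrays were both above the sorted ones, but 0.64 apart. The difference was -0.93 in P4 (SE 0.19, adjusted p = 0.0626) and -0.86 in P5 (SE 0.19, adjusted p = 0.0886) and missed the threshold. Replacing the outlier backgrounds put het MEC at 1.50 and WT MEC at 1.68, and Adipoq was called lower in P4 (-1.08, SE 0.13, adjusted p = 0.011) and in P5 (-1.22, SE 0.13, adjusted p = 0.0161). It was also called in both with median centring, with the scanner software's ratios and with Cy5 alone. Its raw Cy5 signal was 86.0 in het P4, 103 in WT P4, 72.2 in het P5 and 93.1 in WT P5, against 293 in het MEC and 388 in WT MEC. Negative control spots had a median Cy5 signal between 37.2 and 42.9, so on the sorted arrays the Adipoq signal was 1.94 to 2.41 times the negative controls.

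Lep (leptin) and Retn (resistin), hormones of white fat, showed no difference past the threshold. Lep was 0.13 in het and 0.02 in WT P4 and 0.04 in het and 0.05 in WT P5, against 0.14 in het and 0.02 in WT MEC, so the populations overlapped. The Lep probe was printed 10 times, and its spots on 1 array had an SD of at most 0.12 (het P5) and at least 0.02 (WT P4). On WT P4 and WT MEC this SD was 0.09 and 0.08 with outlier backgrounds replaced, against 0.02 and 0.03 with backgrounds as given. Its differences were -0.01 in P4 (SE 0.11, adjusted p = 0.98) and -0.04 in P5 (SE 0.11, adjusted p = 0.877), and its sign in P4 turned with outlier backgrounds replaced (0.02). Retn was 0.11 in het and -0.04 in WT P4 and 0.02 in het and -0.12 in WT P5, against 0.22 in het and 0.07 in WT MEC. The differences were -0.11 (SE 0.11, adjusted p = 0.593) and -0.20 (SE 0.11, adjusted p = 0.366). Both genes were dim. The Lep signal was 1.73 to 2.93 times the negative controls over the 6 arrays, and the brighter Retn probe 1.65 to 3.93 times.

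**Figure D2:**
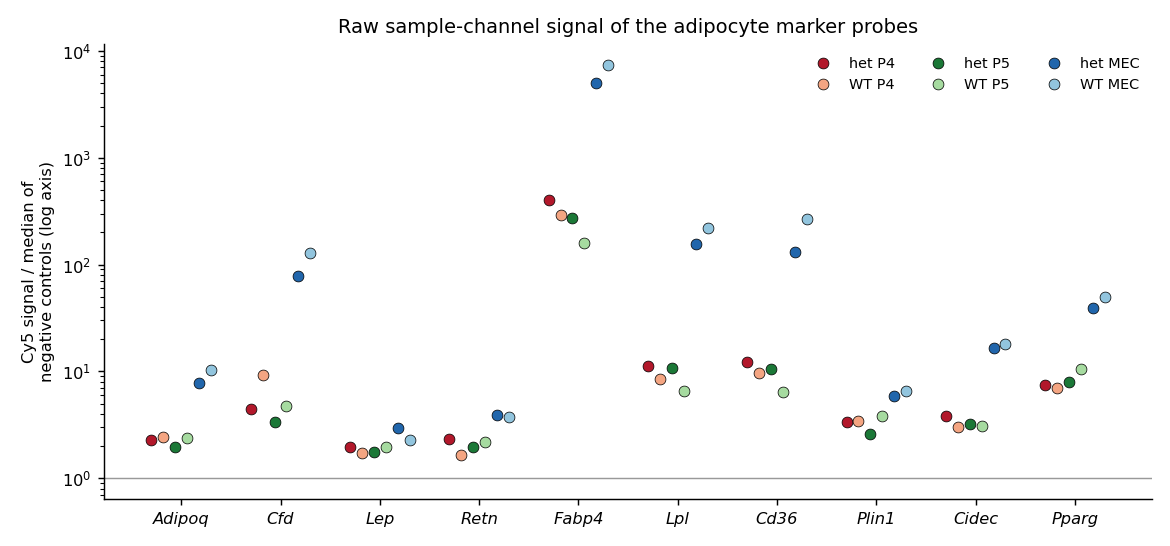
Raw Cy5 signal of the probe that stands for each gene, divided by the median negative control signal of the same array, on a log axis. Lep and Retn lie near the negative controls, as do Plin1, Adipoq and Cidec on the sorted arrays, and Cfd in het P5 is at 3.33 times their median. On the MEC arrays Plin1 is at 5.94 (het) and 6.50 (WT) times that median. The Fabp4 signal on MEC arrays is 4982 (het) and 7428 (WT) times that median.

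Lpl (lipoprotein lipase) and Cd36 (a fatty acid transporter) handle fatty acid uptake and had the largest differences in P5. Lpl was -0.60 in het and -1.30 in WT P4 and -1.08 in het and -2.50 in WT P5, against 1.97 in het and 1.86 in WT MEC. The difference was -2.86 in P4 (SE 0.33, adjusted p = 0.0286) and -3.70 in P5 (SE 0.33, adjusted p = 0.0192). Its other probe gave -2.52 (SE 0.24, adjusted p = 0.0249) and -2.88 (SE 0.24, adjusted p = 0.0183), in a fit over all 36425 probes. Cd36 was 0.56 in het and -0.17 in WT P4 and -0.07 in het and -1.58 in WT P5, against 2.74 in het and 3.03 in WT MEC. The difference was -2.69 in P4 (SE 0.44, adjusted p = 0.0442) and -3.71 in P5 (SE 0.44, adjusted p = 0.0313), and its other probe gave -2.57 and -3.46. With no filter on dim probes the Cd36 call in P4 was lost (adjusted p = 0.0536). For both genes the 2 probes thus gave the same direction and call in P4 and in P5.

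Fabp4, the fatty acid binding protein of adipocytes, gave answers that depended on the probe. With the brightest probe the level was 6.89 in het and 5.15 in WT P4 and 6.12 in het and 4.13 in WT P5, against 7.57 in het and 7.08 in WT MEC. The difference was -1.30 in P4 (SE 0.39, adjusted p = 0.133) and -2.20 in P5 (SE 0.39, adjusted p = 0.0644). The P5 difference was called once outlier backgrounds were replaced (-2.25, adjusted p = 0.037). The raw Cy5 signal of this probe was 15326 in het P4, 12516 in WT P4, 10187 in het P5 and 6149 in WT P5, against 185625 in het MEC and 282157 in WT MEC. Its raw Cy3 signal, from the reference RNA, lay between 593 and 821 on all 6 arrays. By Cy5 alone both differences were called, -2.60 in P4 at an adjusted p of 0.0239 and -3.92 in P5 at 0.0196. With median centring in place of loess they were -2.70 (adjusted p = 0.00961) and -3.59 (adjusted p = 0.00706), so the size of the Fabp4 difference changed with the normalization.

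The Fabp4 probe A_51_P336830 gave 0.12 in P4 (SE 0.28, adjusted p = 0.857) and -0.65 in P5 (SE 0.28, adjusted p = 0.27). Replacing outlier backgrounds put it at 0.53 in P4 and -0.63 in P5, neither called. Its Cy3 signal was 800 in het P4, 682 in WT P4, 670 in het P5 and 710 in WT P5, against 1630 in het MEC and 2535 in WT MEC. The Cy3 signal of that spot was therefore higher on the MEC arrays, although the median Cy3 signal of all spots was 116 and 118 there and 252 to 290 on the sorted arrays. The dimmest Fabp4 probe, A_52_P564544, had Cy3 signals between 56.2 and 71.1. It gave -2.99 in P4 (SE 0.10, adjusted p = 0.0206) and -2.82 in P5 (SE 0.10, adjusted p = 0.0137), both called. The raw Cy5 signal was higher on both MEC arrays than on all sorted arrays for each of the 3 Fabp4 probes.

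Of the lipid droplet proteins, Cidec, which fuses droplets, was called in both populations and Plin1, which coats them, in neither. Cidec was 0.72 in het and 0.21 in WT P4 and 0.54 in het and 0.23 in WT P5, against 2.11 in het and 1.33 in WT MEC. The difference was -1.26 in P4 (SE 0.15, adjusted p = 0.0295) and -1.33 in P5 (SE 0.15, adjusted p = 0.0295). On the sorted arrays the Cidec signal was dim, 3.01 to 3.79 times the negative controls, and the Plin1 signal there was 2.58 to 3.80 times. On the MEC arrays Cidec was at 16.7 (het) and 17.9 (WT) times and Plin1 at 5.94 (het) and 6.50 (WT) times. Plin1 was 0.51 in het and 0.19 in WT P4 and 0.18 in het and 0.24 in WT P5, against 0.75 in het and 0.41 in WT MEC, so het P4 lay above WT MEC. The differences were -0.23 (SE 0.15, adjusted p = 0.419) and -0.37 (SE 0.15, adjusted p = 0.253). Once outlier backgrounds were replaced, both MEC arrays (0.75 in het and 0.84 in WT) lay above the sorted ones, of which the highest was 0.58, and still neither difference passed. In the scanner software's log ratios Plin1 was called in P5 (-0.96, adjusted p = 0.048).

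Pparg, the transcription factor of the group, was 0.15 in het and -0.24 in WT P4 and -0.05 in het and -0.43 in WT P5, against 1.40 in het and 1.20 in WT MEC. The difference was -1.34 in P4 (SE 0.12, adjusted p = 0.0227) and -1.54 in P5 (SE 0.12, adjusted p = 0.0171). The probe was printed 10 times, and the SD of its spots on 1 array, which is technical only, was between 0.06 and 0.09.

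**Figure D3:**
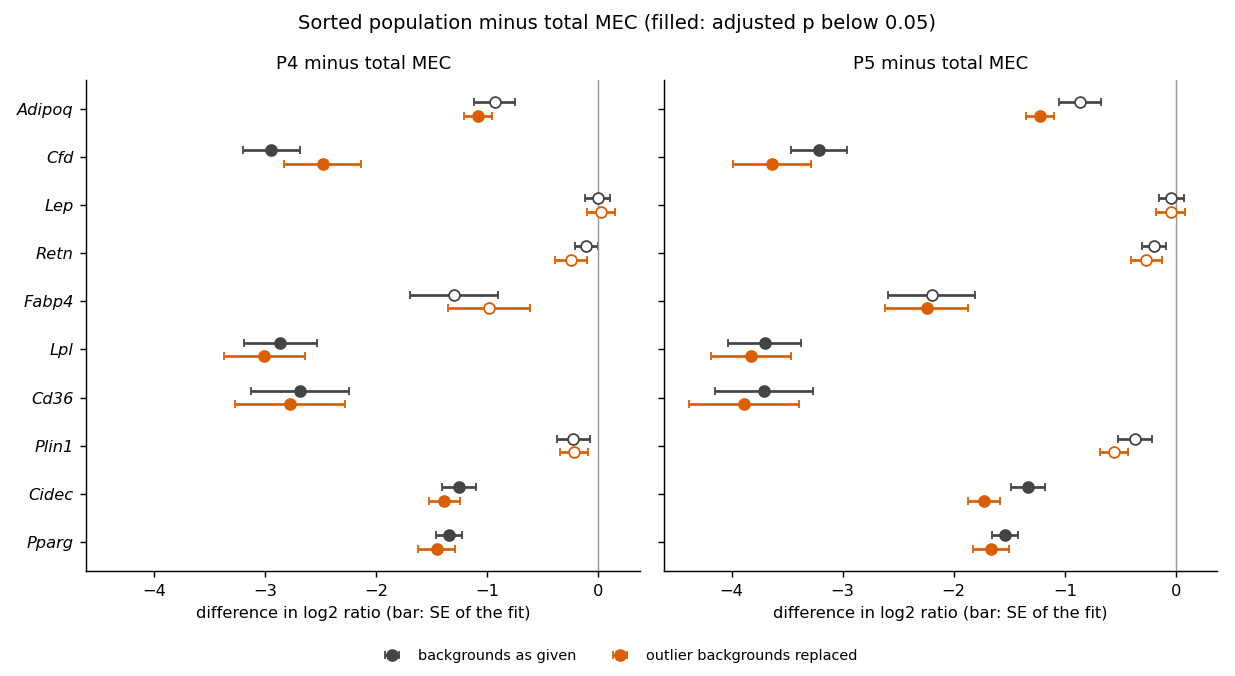
Difference of P4 and of P5 from MEC for each gene, in log2 ratio, with the SE of the limma fit as bars, for backgrounds as given and replaced. Filled points passed an adjusted p of 0.05. Cfd, Lpl, Cd36, Cidec and Pparg are filled throughout, Adipoq only with replaced backgrounds, Fabp4 only in P5 with replaced backgrounds, and Lep, Retn and Plin1 in no panel.

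With outlier backgrounds replaced, 6 of the 10 genes were called lower in P4 (median -1.24) and 7 in P5 (median -1.69), and both MEC arrays lay above all sorted arrays for 9 of 10 genes, all but Lep, against 12.3% of all genes. Over all genes, 8.35% were called lower in P4 and 4.12% in P5 at this setting. With backgrounds as given, leaving out het P4, WT P4, het P5 or WT P5 left 0 of 10 calls in P4 and in P5, with 0 called among all genes and 2875 to 5679 at an unadjusted p under 0.05 in limma. The medians of the 10 genes then lay between -1.32 and -1.16 in P4 and between -1.50 and -1.38 in P5.

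Endothelial and fibroblast markers were also mostly lower on the sorted arrays than on the MEC arrays. All 12 leukocyte markers were lower in P5 by the fitted difference, but a smaller part of that list was called. Over all genes, 4.1% were called lower in P4 and 3.01% in P5. The mean log ratio of 12 endothelial genes was 1.36 in het and 0.71 in WT P4 and 1.34 in het and 0.82 in WT P5, against 3.05 in het and 2.45 in WT MEC, and 9 (P4) and 8 (P5) of the 12 were called lower than in MEC. The mean of 10 fibroblast genes was -0.78 in het and -1.17 in WT P4 and -1.82 in het and -2.53 in WT P5, against 1.04 in het and 1.60 in WT MEC, with 6 and 9 of 10 called lower. For 12 macrophage and other leukocyte genes the mean was -1.05 in het and -1.06 in WT P4 and -1.43 in het and -1.58 in WT P5, against -0.64 in het and -0.22 in WT MEC, with 3 and 2 of 12 called lower. Lyz2 (-2.95 in P4 and -3.72 in P5) and C1qc (-1.88 and -1.90) were called in both and C1qa (-0.78) in P4, while 4 of the 12, Cd68 (0.20), C1qb (0.18), Fcgr1 (0.06) and Itgam (0.03), were above MEC in P4, and the list median there was -0.17. Replacing outlier backgrounds gave 10 and 11 endothelial, 8 and 10 fibroblast and 3 and 2 leukocyte calls, with C1qa not among the last. At that setting 8.35% of all genes were called lower in P4 and 4.12% in P5. For comparison, the mean of the 10 adipocyte markers was 1.02 in het and 0.52 in WT P4 and 0.71 in het and 0.13 in WT P5, against 2.31 in het and 1.96 in WT MEC. At least 10 of the 12 leukocyte genes, 11 of the 12 endothelial genes and all fibroblast genes were well above background on each array, as were 72.1% to 87.7% of all spots. The part of these cells in the levels of Fabp4, Cd36, Lpl and Pparg was not tested.

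**Figure D4:**
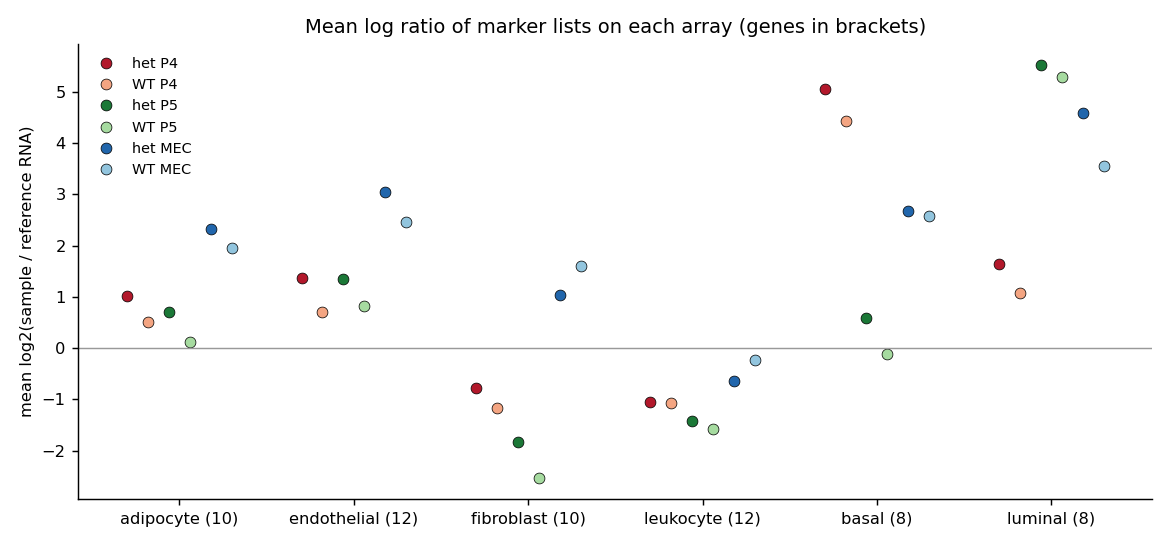
Mean log2(sample over reference RNA) of each marker list on each array, with the number of genes in brackets. The adipocyte, endothelial, fibroblast and leukocyte lists are each higher on both MEC arrays than on all 4 sorted arrays, while the basal list is highest in P4 and the luminal list in P5.

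Other adipocyte and lipid genes were mixed, and most were not called. Their list covered lipid synthesis, lipolysis and droplets, uptake and transport, adipogenic factors, receptors and other adipocyte genes, and precursor genes. Of 51 listed genes 50 were measured, and 6 were called lower and 1 higher in P4 than in MEC (median -0.33), and 5 lower and 0 higher in P5 (median -0.16). Replacing outlier backgrounds gave 12 called lower and 3 higher in P4, and 9 lower and 0 higher in P5, where 8.35% and 9.55% of all genes in P4 and 4.12% and 2.04% in P5 were called lower and higher. Ebf1, an early factor of the adipocyte lineage, fell in both populations (-1.53, adjusted p = 0.0283, and -2.18, adjusted p = 0.0178). Cd34, a surface protein of adipocyte precursors and also of endothelium, fell too (-2.34, adjusted p = 0.0415, and -4.21, adjusted p = 0.0192). Pdgfra, another precursor gene that fibroblasts share, was called in P5 (-2.72, adjusted p = 0.0315) and not in P4 (-1.51, adjusted p = 0.0719), but in P4 too once outlier backgrounds were replaced (-1.94, adjusted p = 0.0334).

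Several lipid genes passed in only 1 of the 2 populations. Cidea, a droplet protein related to Cidec, was 1.79 in het and 0.88 in WT P4 and 4.55 in het and 4.16 in WT P5, against 5.14 in het and 4.20 in WT MEC. It was called lower in P4 (-3.33, adjusted p = 0.0201), while P5 stood at -0.32 (adjusted p = 0.391). Gpd1, which makes the glycerol phosphate of triglyceride, fell in P4 (-3.03, adjusted p = 0.0218), while P5 stood at 0.25 (adjusted p = 0.609). Scd1, which desaturates fatty acids, fell in P4 (-2.57, adjusted p = 0.0218). Its P5 difference of -1.22 missed the threshold (adjusted p = 0.0549) and was called once outlier backgrounds were replaced (-1.32, adjusted p = 0.0404). Plin2, the droplet coat of many cell types, fell in P4 (-1.79, adjusted p = 0.0497), while P5 stood at -1.15 (adjusted p = 0.136). P4 and P5 themselves differed by the test for Cidea, Gpd1 and Scd1, and for Plin2 they did not pass (-0.65, adjusted p = 0.303). In the other direction, Plin4, an adipocyte droplet coat, and Mest, an imprinted gene of fat expansion, were called lower in P5 (-1.42, adjusted p = 0.0193, and -2.44, adjusted p = 0.0178) and not in P4 (0.13, adjusted p = 0.6, and -0.93, adjusted p = 0.0647). Cebpb, an early adipogenic factor that many cells use, was the gene called higher in P4 (1.48, adjusted p = 0.0246).

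With backgrounds as given, of the genes on that list that were not called, Elovl6 (2.90), Slc2a4 (0.96) and Pdk4 (0.75) had the highest differences in P4, and Dgat2 (-2.12), Pdgfra (-1.51) and Acsl1 (-1.03) the lowest. In P5 Elovl6 (1.26), Lipe (0.82) and Dgat2 (0.70) stood highest and Slc2a4 (-1.83), Vldlr (-1.36) and Scd1 (-1.22) lowest. More genes of the list were called once outlier backgrounds were replaced. In P4, beside Pdgfra, they were Elovl6 (3.097, adjusted p = 0.0178) and Slc2a4 (1.28, adjusted p = 0.0423), called higher, and Dgat2 (-2.08, adjusted p = 0.0445), Srebf1 (-0.996), Acly (-0.88), Pnpla2 (-0.67) and Pck1 (-0.63), called lower. In P5 they were Scd1 (-1.32, adjusted p = 0.0404), Slc2a4 (-2.22, adjusted p = 0.023), Cav1 (-1.02) and Pck1 (-0.86), called lower. Of the other adipocyte-restricted genes, Adig was at 0.24 in P4 and 0.14 in P5 and Adrb3 at 0.04 and -0.07, with adjusted p between 0.407 and 0.864. Neither passed the threshold in P4 or P5. They do not stand for the adipocyte genes of the list, of which Plin4 was called lower in P5 (-1.42) and not in P4.

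P4 was next compared with P5, both on slide 1. None of the 10 adipocyte markers was called, against 5.02% of all genes called higher and 5.52% lower in P4. Of the 10, 9 were higher in P4, and the median difference was 0.17 beside 0.04 over all genes. By the brightest probe, the highest were Cd36 at 1.02 (SE 0.44, adjusted p = 0.242), Fabp4 at 0.90 (SE 0.39, adjusted p = 0.251) and Lpl at 0.84 (SE 0.33, adjusted p = 0.199). The other Cd36 probe gave 0.89 and the other Lpl probe 0.35. The Fabp4 probe A_51_P336830 gave 0.77, while A_52_P564544 went the other way (-0.16). None of these was called. The remaining 7 lay between -0.07 (Adipoq) and 0.27 (Cfd). For Cfd both P4 arrays were above both P5 arrays, and replacing outlier backgrounds put its difference at 1.16 (adjusted p = 0.0934). In a fit of the 4 sorted arrays alone, Fabp4 (adjusted p = 0.0123), Cd36 (adjusted p = 0.027) and Lpl (adjusted p = 0.0419) were called higher in P4, with 19.7% of all genes called in either direction. The sign of Adipoq turned with outlier backgrounds replaced (0.14), and that of Retn with median centring (-0.02).

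Some adipocyte and lipid genes outside the marker list did differ between P4 and P5, 8 of 50 called higher and 8 lower. Slc2a4, the insulin-responsive glucose transporter, was higher by 2.79 (adjusted p = 0.0162), Cebpb by 2.003 (adjusted p = 0.00904) and Cd34 by 1.87 (adjusted p = 0.0484). Plin4 (1.55), Pdk4 (1.52), Mest (1.51), Cav1 (1.24) and Angptl4 (0.85) were also called higher in P4. Gpd1 (-3.27, adjusted p = 0.00904), Cidea (-3.02), Dgat2 (-2.82), Scd1 (-1.35), Srebf1 (-1.12), Adipor1 (-0.89), Pnpla2 (-0.86) and Lepr (-0.74) were called lower. Lipid synthesis genes made up 4 of the 8 called lower, and uptake and transport genes 3 of the 8 called higher. Of those not called, Elovl6 (1.65), Pdgfra (1.21) and Vldlr (1.20) stood highest and Adipor2 (-1.02), Me1 (-0.93) and Lipe (-0.69) lowest. Adipor2 was called once outlier backgrounds were replaced (-0.97, adjusted p = 0.0483).

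The genotype comparison, which the study's title places at its centre, called none of the 10 genes over the 3 populations. Of all genes 0% were called higher and 0% lower in het, the smallest adjusted p in limma was 0.206, and 5161 genes had an unadjusted p under 0.05. All 10 markers had a positive mean het minus WT difference by the brightest probe, with a median of 0.39 beside 0.07 over all genes. They use the backgrounds as given, so they include what the marked backgrounds did on each array. Adipoq, for example, was 0.32 in het and 0.15 in WT P4 and 1.49 in het and 0.85 in WT MEC as given, and 0.38 in het and 0.63 in WT P4 and 1.50 in het and 1.68 in WT MEC with outlier backgrounds replaced. Fabp4 was highest at 1.41 (SE 0.32, adjusted p = 0.206), then Lpl at 0.74 (SE 0.27, adjusted p = 0.227), Cd36 at 0.65 (SE 0.36, adjusted p = 0.361) and Cidec at 0.54 (SE 0.12, adjusted p = 0.206). The other probe gave 0.15 for Lpl, 0.55 for Cd36 and -0.01 for Retn. Several directions depended on the processing. Replacing outlier backgrounds left 7 of 10 positive (median 0.16 beside 0.05), and Cfd (-0.56), Adipoq (-0.18) and Plin1 (-0.07) turned negative. With median centring, which moved the median of all genes to -0.21, Pparg (-0.47), Cd36 (-0.32) and Lpl (-0.27) turned negative. Fabp4 was positive in each of these fits (1.06 and 0.29), as was Cidec.

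Within P4, het lay above WT for all 10 genes, with a median difference of 0.36 beside 0.11 over all genes. Only Fabp4 was at least 2-fold higher (1.74) and none was 2-fold lower, against 5.9% and 0.113% of all genes. The technical SD of a difference between 2 single spots was 0.14, from 245 probes printed 10 times, and no spread between animals was available. The Fabp4 difference was 1.06 with outlier backgrounds replaced, and Cfd became the 1 gene at least 2-fold lower in het P4 (-1.41), with 1.65 in het and 3.06 in WT. Adipoq also turned (-0.25). Cfd was at -1.73 by the scanner software's ratios and at -0.96 by Cy5 alone, whereas median centring gave 0.11. Median centring also put Fabp4 at 0.16 and turned Pparg (-0.82), Lpl (-0.77) and Cd36 (-0.66). At that setting the median of all genes in P4 was -0.37, and 34.6% of all genes were at least 2-fold lower in het.

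Within P5, het lay above WT for 8 of 10 genes by the brightest probe, with a median of 0.24 beside 0.07 over all genes. Fabp4 (1.99), Cd36 (1.51) and Lpl (1.42) were at least 2-fold higher and none was 2-fold lower, against 2.54% and 0.539% of all genes. These were 1.86, 1.61 and 1.52 with outlier backgrounds replaced, and 1.13, 0.67 and 0.55 with median centring. Median centring put the median of all genes in P5 at -0.20. The other Cd36 probe stood at -0.59 in het and -1.96 in WT P5, and the other Lpl probe at -0.89 in het and -1.53 in WT P5, a smaller gap than with the first probe. The Fabp4 probes A_51_P336830 and A_52_P564544 stood at 5.51 and 1.47 in het P5, against 3.65 and 0.53 in WT P5. The other Retn probe was slightly lower in het (-0.11) than in WT P5 (-0.09). The raw Cy5 signal of the brightest Fabp4 probe, 10187 in het and 6149 in WT P5, was also higher in het.

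Within MEC, het lay above WT for 9 of 10 genes, with a median of 0.27 beside 0.04 over all genes. Cfd was at least 2-fold higher (1.03), none was 2-fold lower, and Cd36 was below WT (-0.29), against 2.01% of all genes at least 2-fold higher and 0.693% lower. Replacing outlier backgrounds left 3 of 10 above WT and a median of -0.03, and Cfd stood at -0.10, Cidec at -0.05, Adipoq at -0.18 and Cd36 at -0.55. Before any correction the Cy5 signals of Cfd (2907 in het and 4870 in WT), Adipoq (293 and 388), Cidec (621 and 680) and Cd36 (4865 and 10201) were lower in het MEC than in WT MEC, while the median Cy5 signal of all spots was 173 in het and 188 in WT. The direction for adipocyte markers in MEC thus depended on the treatment of the background.

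**Figure D5:**
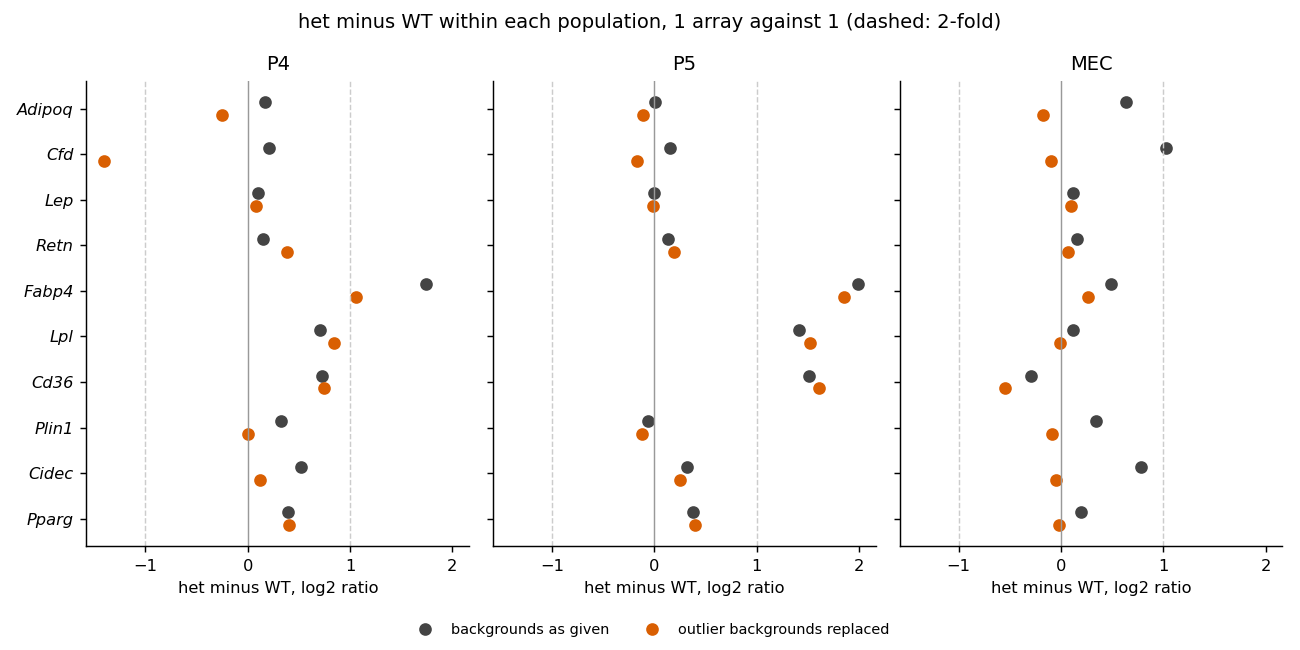
het minus WT in P4, P5 and MEC for each gene, in log2 ratio, 1 array against 1, with backgrounds as given and replaced. Dashed lines mark 2-fold. Fabp4, Lpl and Cd36 lie right of the 2-fold line in P5 under both treatments, while the replaced values of Cfd in P4 and of most genes in MEC lie left of those with backgrounds as given.

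A fit of the 4 sorted arrays alone used the backgrounds as given and had 1 residual degree of freedom. In it Fabp4 was the 1 of 10 genes called by genotype, higher in het by 1.87 (adjusted p = 0.0162). Of all genes 4.48% were called there, and most went the same way, 1028 higher and 35 lower in het. In the fit of all 6 arrays Fabp4 was not called. The other Fabp4 probes gave 1.39 (SE 0.23) and 0.96 (SE 0.08) over the 3 populations, each with adjusted p = 0.189, and with outlier backgrounds replaced 1.05 and 0.12. In the fit of all 6 arrays 0 genes were called by genotype, so no marker of another cell type could be among the calls. The lists of other cell types were not read in the fit of the sorted arrays alone. Of the endothelial list 12 of 12 genes were higher in het (median 0.57), of the basal list 8 of 8 (0.42), of the luminal list 8 of 8 (0.50), of the fibroblast list 7 of 10 (0.21) and of the leukocyte list 4 of 12 (-0.13). Once outlier backgrounds were replaced, these were 9 (median 0.15), 7 (0.24), 7 (0.08), 8 (0.14) and 7 (0.0096), so the leukocyte median turned. Within P5 the medians as given were 0.77 for the basal, 0.56 for the endothelial, 0.48 for the fibroblast and 0.11 for the luminal and for the leukocyte list. Their part in the higher Fabp4, Cd36 and Lpl levels of het P5 was not tested. Of the 50 other adipocyte and lipid genes measured, 40 were higher in het and the median was 0.25, against 37 and 0.13 with outlier backgrounds replaced. As with all genes, 0 of them were called by genotype. Mgll (1.08), Elovl6 (0.91) and Gpihbp1 (0.83) stood highest and Ebf1 (-0.49), Pdgfra (-0.20) and Abhd5 (-0.18) lowest. Replacing outlier backgrounds put Mgll at 0.36, Elovl6 at 0.84, Gpihbp1 at 0.60, Ebf1 at -0.22, Pdgfra at 0.13 and Abhd5 at -0.44.

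The profiles of the 10 genes over the arrays varied in likeness. Pearson correlations between pairs of them over the 6 arrays ran from 0.31 (Lep and Cd36) to 0.996 (Lpl and Cd36), with a median of 0.85, and 13 of 45 pairs were above 0.9. The arrays share a reference and, by slide, the contrast of sorted with MEC, so these values are a description. Lpl, Cd36 and Pparg correlated with each other at 0.973 to 0.996. Adipoq followed Cidec (0.98) and Cfd (0.97), whose MEC values were higher in het than in WT with backgrounds as given. The mean profile of the 10 was compared with 1250 genes with an SD of at least 1. The most like it were Egfl7 (0.998), Cd93 (0.996), Serping1 (0.995), Flt1 (0.995) and Ntrk2 (0.995). Egfl7 stands on the endothelial list, which does not hold every endothelial gene, and the cell types of the others were not read. The 10 genes were centred but not scaled, so those with the largest spread weighed most in the mean. The genes most like Adipoq alone were Cytl1 (0.99), Fads2b (0.99), Hdc (0.99), Psapl1 (0.99) and Ablim3 (0.98). All these correlations use the backgrounds as given, where Adipoq was 1.49 in het and 0.85 in WT MEC. With outlier backgrounds replaced it was 1.50 in het and 1.68 in WT MEC, and the correlations were not repeated on those values.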

How the data were processed

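Total RNA from 6 samples was hybridised to 6 Agilent 2-colour arrays. Per the file headers, the authors' scanner files were made with Agilent Feature Extraction 9.5.3.1, on a probe design built on mm7. They hold the mean spot intensity and the median local background intensity, neither of them normalized, a log10 ratio (Cy5 on top) made by the software after background subtraction and dye normalization, and flags of 0 or 1. The deposited series table holds log2 ratios. Over 41174 probes they correlated with the scanner software's ratios with r from 0.988 to 0.999, so they run sample over reference, and their column medians lay between -0.04 and 0.10. Their centring is not given in the sources used here.

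Intensities were corrected with normexp (offset 50) and loess within each array in limma 3.58.1 (R 4.3.3, data.table version 1.17.8, jsonlite 2.0.0, figures with matplotlib 3.10.9). Between 125 and 310 spots per array with outlier flags were left out, and spots of a probe were averaged. Of 41174 probes, 22951 were named by accession, 3109 by synonym and 15114 by the array's symbol. A probe was kept when 2 or more of the 6 arrays had it well above background in Cy5, and the brightest probe stood for its gene. The additive limma fit pools population-by-genotype differences with noise, and slide is absorbed by population. Within a population the genotypes were compared without a test, at 2-fold. The number of arrays limits the precision. Each value is of 1 array, so p-values measure only the spread around the additive fit.

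All 10 genes are named. Of the other adipocyte and lipid genes, those called and up to 3 at each end were named. So were the 5 genes most like the mean profile and like Adipoq among genes with an SD of at least 1. Adig, Adrb3, the leukocyte genes and those called only with replaced backgrounds were chosen after their values were seen. The genes and lists were chosen with earlier results of these data known. The alternatives were replaced backgrounds, offset 0, the scanner software's ratios, the series table, median centring, Cy5 alone, 2 filters, the mean over probes, leaving out each array and the sorted arrays alone.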

Additional observations from a re-analysis of the deposited data

How the results depend on the processing

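The calls of Cfd, Lpl, Cd36, Pparg and Cidec against MEC kept their direction under every alternative run. Over the 9 alternatives that keep all arrays, 4 to 7 of 10 genes were called in P4 and 5 to 8 in P5, the 8 both by the scanner software's ratios and by the series table. Leaving out 1 array gave 0 to 6 calls in P4, 0 to 7 in P5, 0 to 3 in P4 against P5 and 0 to 1 by genotype. The 0 calls in P4 and P5 arose without any 1 sorted array, and with 1 array fewer the fit has 1 residual degree of freedom. It assumes that the lone array of a population varies like the others. The sorted arrays alone gave 3 calls between P4 and P5 and 1 by genotype. For these 2 comparisons, leaving out a MEC array gives the estimates of the sorted arrays alone by construction. No paired analysis was possible because each group had 1 array and the labels give no replicate numbers.

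The het minus WT median of the 10 genes was moved by offset 0 to 0.60 in P4 and 0.47 in P5, by median centring to 0.14 in P4, and in MEC to 0.014 by the scanner software's ratios and by the series table, to 0.0046 by Cy5 alone and to -0.034, a reversal, with replaced backgrounds. The cause was not tested. Calls over all genes moved by a large factor in several settings. In P4 against MEC there were 1013 lower and 680 higher, against 2062 and 2359 with replaced backgrounds. In P5 against MEC there were 743 and 228, against 1018 and 504, and in P4 against P5 1363 and 1240, against 372 and 505 with median centring. By genotype there were 0, against 153 lower and 259 higher with offset 0 and 7124 lower and 697 higher with median centring. Median centring moved the median of all genes to -0.23 in P4 and -0.35 in P5 against MEC.

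Within a population, het minus WT changed sign under at least 1 of the 9 alternatives for 6 of 10 genes in P4 (Adipoq, Plin1, Cfd, Lpl, Pparg and Cd36), 4 in P5 (Adipoq, Cfd, Pparg and Lep) and 7 in MEC (all but Lep, Retn and Cd36). Among the tested differences, those that reversed were not called. In P4 against MEC, Lep was at 0.021 with replaced backgrounds, 0.18 by the scanner software's ratios and the series table and 0.17 with median centring, and in P5 at 0.22 with median centring. In P4 against P5, Adipoq was at 0.14 with replaced backgrounds, 0.35 by both sets of ratios and 0.21 by Cy5 alone, Retn at -0.0081 by both sets of ratios and -0.018 with median centring, and Lep at -0.051 with median centring. For het minus WT, Adipoq was at -0.18 with replaced backgrounds, -0.32 by both sets of ratios and -0.11 by Cy5 alone, Cfd at -0.56, -0.37 and -0.41, and Plin1 at -0.068, -0.17 and -0.043. Median centring gave Cd36 at -0.32, Lpl at -0.27 and Pparg at -0.47, and Retn was at -0.021 in the sorted arrays alone. Within MEC, Cfd, 2-fold higher as given, was at -0.098 with replaced backgrounds and -0.23 by Cy5 alone. Leaving out 1 array, Lep ran from -0.042 to 0.028 in P4 and from -0.0997 to 0.0199 in P5 against MEC. In P4 against P5, Adipoq ran from -0.27 to 0.13, Lep from -0.027 to 0.093, Cidec from -0.085 to 0.24 and Plin1 from -0.052 to 0.34, and for het minus WT Retn ran from -0.021 to 0.15.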
